A study of Homo sapiens with 12 samples.

Results

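The accessibility of chromatin was followed at 10 genes of the epithelial-mesenchymal transition. They were the transcription factors ZEB1, ZEB2, SNAI1, SNAI2, TWIST1, TWIST2 and PRRX1, the cadherins CDH1 (E-cadherin) and CDH2 (N-cadherin), and VIM (vimentin), 10 of the 20020 protein-coding genes of the annotation (GENCODE version 44). All accessible 100-bp bins inside each gene body and 30 kb on either side of it were taken as the locus of the gene. This gave 415 of 709366 bins in DU-145 cells, grouped into 46 of 79177 accessible regions (runs of adjoining bins). In BT-549 cells it gave 461 of 472994 bins and 39 of 46298 regions.

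Epithelial-mesenchymal transition is the program by which epithelial cells give up their junctions and become motile. ZEB, SNAIL and TWIST family proteins bind E-box sequences and repress CDH1, the adhesion molecule of epithelial junctions, while CDH2 and the intermediate filament protein VIM mark the mesenchymal state. PRRX1 is a homeobox factor of mesenchyme that also induces the transition, and AP-1 (JUN and FOS dimers) is a family of factors that bind many enhancers in such cells.

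ATAC-seq, which maps open chromatin by Tn5 transposition, had been done in DU-145, a castration-resistant prostate cancer (CRPC) line, and BT-549, a triple-negative breast cancer (TNBC) line. Both lines carried a tetracycline-inducible shRNA against MUC1, and the comparison addressed how loss of the MUC1-C subunit affects accessibility. Each line had 3 libraries of vehicle-treated cells (0.1% DMSO, labelled untreated) and 3 of cells treated with doxycycline (DOX) for a week, 12 libraries in all, from replicates stated to be biologically independent. No libraries with a control hairpin and DOX were part of this comparison, so the drug and the hairpin cannot be told apart, and each line is a single model of its cancer. The hairpin acts on the transcript, so accessibility is no check of silencing, and RNA was not analysed here.

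Summed coverage ranged from 1.24e+07 to 2.52e+07 per library in DU-145. BT-549 was shallower, at 9.14e+06 to 1.36e+07 for the vehicle libraries and at most 3.27e+06 for the treated ones. The epithelial promoters KRT8, KRT18 and EPCAM had peaks in 6 of 6 DU-145 libraries and in 0, 3 and 1 of 6 BT-549 libraries, while of the luminal markers the promoter of KLK3 (prostate) had no bins in DU-145 and those of ESR1 and PGR (breast) none in BT-549. GATA3 had bins in both lines and ESR1 in DU-145. Promoters of leukocyte, endothelial and erythroid markers (PTPRC, CD3E, PECAM1, CDH5, HBB and ALAS2) had no bins and no peak in either line. Values below are coverage scaled to the sum of the library, so that all libraries are on the same scale (CPM). Adjusted p values are from quasi-likelihood tests in edgeR, with the Benjamini-Hochberg method over all features of the same kind. A difference with an adjusted p under 0.05 was called. More cells with an open site and a more open site per cell cannot be told apart in such bulk data.

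The tables hold only regions in which at least 3 of the 6 libraries of a line had a peak. A gene without bins in a table therefore has no value there, which is not a value of 0. A region can also have entered through peaks in one treatment alone, which favours a higher value in that treatment. This was so for 5 of the 46 regions in DU-145, 4 of them with peaks in the DOX libraries only, and for 13 of the 39 in BT-549, all with peaks in the vehicle libraries only, of which 3 were called lower and 10 were not called. Where such a region is named below this is said, and its values are given without a test. A region with peaks in all 3 libraries of one treatment and in fewer of the other can have entered through the first treatment too. Where one is named its peak counts are given, and its adjusted p is not free of this choice.

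Sequences at the sites the results turn on are shown from the GRCh38 genome, 29 or 30 bases each on the strand of the gene. The first set is the CDH1 promoter, shown because the repressors among the 10 genes recognize E2-boxes (CAGGTG or CACCTG, in capitals). Those at positions -80 and 21 relative to the transcription start, in the window around the highest bin over the CDH1 start in DU-145, are printed.
CDH1 position -80 (chr16:68737200-68737229): ggctgtggccggCAGGTGaaccctcagcca
CDH1 position 21 (chr16:68737301-68737330): ggaactgcaaagCACCTGtgagcttgcgga

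The second set holds AP-1 sites (TGACTCA or TGAGTCA, in capitals) from distal regions whose coverage differed with DOX, named by position relative to the start of the gene.
PRRX1 position 44033 (chr1:170708153-170708181): tggtcacgacaTGAGTCAcagtgacacac
PRRX1 position 47848 (chr1:170711968-170711996): agtgagtaataTGACTCAactgttgtgtt
VIM position -12846 (chr10:17215384-17215412): aatatttgtcaTGACTCAttgcctttttc
VIM position -11880 (chr10:17216350-17216378): tgttatgagcaTGAGTCAccaaaactact
CDH1 position 41770 (chr16:68779051-68779079): tgccaaggtgtTGAGTCAacttatttaca
ZEB2 position 105373 (chr2:144414735-144414763): ttctctcatgtTGAGTCAttatggtgcag
ZEB2 position 161996 (chr2:144358112-144358140): gcactgctttcTGAGTCAttgtcgtgaaa

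Both motifs were searched on both strands in the 300 bp around the highest bin of every region. In DU-145, an AP-1 site was present in 20 of the 46 regions of the 10 genes (43.5%), against 23771 of all 79177 regions (30%). An E2-box was present in 14 (30.4%), against 26.6%. In BT-549 the counts were 7 of 39 (17.9%, against 17.2%) and 5 of 39 (12.8%, against 19.2%). In DU-145, 13 of the 19 regions called higher with DOX and 2 of the 5 called lower held an AP-1 site, and in BT-549 2 of 9 and 2 of 5. The 13 include regions with peaks in the DOX libraries only, at PRRX1 (47.3 kb), TWIST2 (66.4 kb) and CDH1 (41.3 kb). The share among all regions called higher or lower was not counted, so no enrichment is read from these counts. These counts describe letters in a window and carry no test.

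Over both treatments, peaks at 4 promoters differed between the lines in most libraries. Peaks within 1 kb of the start were called at CDH1 in 6 of 6 DU-145 libraries and 1 of 6 BT-549 libraries, and at CDH2 in 0 of 6 and 6 of 6. TWIST1, which specifies mesenchyme, followed CDH2 with 0 of 6 and 6 of 6, and PRRX1 had 3 of 6 (2 vehicle and 1 DOX library) and 6 of 6. ZEB1, SNAI1, SNAI2, TWIST2 and VIM had a promoter peak in all 12 libraries. ZEB2 had one at its annotated start in 1 BT-549 library only, and its accessible region began 2.3 kb (DU-145) or 2.2 kb (BT-549) inside the gene, over a noncoding part of exon 2 (chr2:144516501-144517800 in DU-145). In all, 89 of the 120 windows held a peak.

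The CDH1 promoter peaks in DU-145 reached a fold enrichment of 13.8 to 23.4, and the single BT-549 peak, in vehicle replicate 1, reached 3.12. In BT-549, CDH2 peaks reached 25.9 to 29.3 with vehicle but 9.83 to 12.5 with DOX, and TWIST1 peaks reached 21.9 to 35.6 and 10.6 to 12.4. VIM had the highest enrichment of the 10 promoters in each DU-145 library, between 58.7 and 101.3. For SNAI2, TWIST1, PRRX1, CDH2 and VIM every BT-549 DOX peak was below every BT-549 vehicle peak. The DOX libraries were also the shallowest, and the part of depth in this was not tested.

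**Figure D1:**
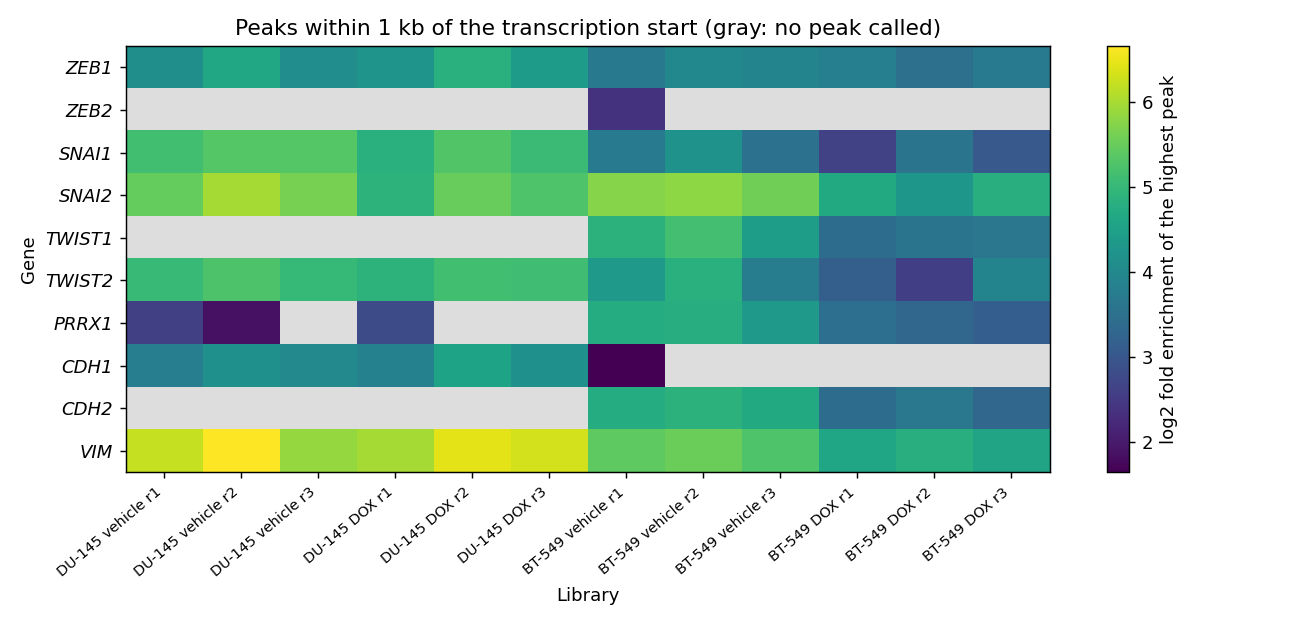
Fold enrichment (log2, color) of the highest authors' peak within 1 kb of the transcription start of each of the 10 genes (rows) in each of the 12 libraries (columns), with gray where no peak was called. CDH1 is filled in 6 of 6 DU-145 and 1 of 6 BT-549 libraries, and CDH2 and TWIST1 in 0 of 6 and 6 of 6.

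Levels of the promoters that both tables hold were compared in vehicle on shared bins (5 promoters tested). Of all promoters, 73.7% were called between the lines (40.1% higher and 33.6% lower in BT-549) and 74.5% did not overlap, and of these genes SNAI2, ZEB1 and SNAI1 were called. SNAI2 (SLUG) gave 32.8, 36.4 and 38.8 CPM in DU-145 and 69.7, 70.3 and 72.8 CPM in BT-549. All BT-549 values were higher (log2 difference 0.98, SE 0.10, adjusted p = 1.18e-13). ZEB1 was at 22.4 CPM in DU-145 and 31.5 CPM in BT-549 (0.49, SE 0.12, adjusted p = 0.000417), though within 0.5 kb of the start the difference was 0.14 and not called (adjusted p = 0.46). SNAI1 (SNAIL) went the other way, with 24.3 CPM in DU-145 and 17.5 CPM in BT-549 (-0.47, SE 0.14, adjusted p = 0.00261). TWIST2 (0.17, SE 0.13) and VIM (-0.04, SE 0.09) had overlapping values, VIM at 69.9 and 68.1 CPM.

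Over whole loci, 8 genes had shared bins, 5 were higher in BT-549 and 1 lower, while 79.3% of all genes were called (45.5% higher and 33.8% lower in BT-549). PRRX1 gave 8.90, 9.18 and 7.32 CPM in DU-145 and 33.3, 29.8 and 33.9 CPM in BT-549, a separation without overlap that 79.5% of all genes showed between the lines (1.92, SE 0.14, adjusted p = 2.9e-13). ZEB2 followed with 17.2 and 46.0 CPM (1.42, SE 0.12), then SNAI2 (0.91, SE 0.09), ZEB1 (0.57, SE 0.11) and TWIST2 (0.52, SE 0.10). SNAI1 was lower in BT-549 (-0.34, SE 0.13, adjusted p = 0.0176). This SNAI1 call was lost without DU-145 vehicle replicate 3 (-0.30), BT-549 vehicle replicate 1 (-0.32) or BT-549 vehicle replicate 3 (-0.24), and with the GC trend removed (-0.16). VIM (0.11, SE 0.06) and CDH1 (0.05, SE 0.12) were not called, and the 18 shared CDH1 bins left out its promoter, 12 of them lying at the start of the neighboring gene TANGO6. Line, copy number and culture cannot be told apart in these levels.

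**Figure D2:**
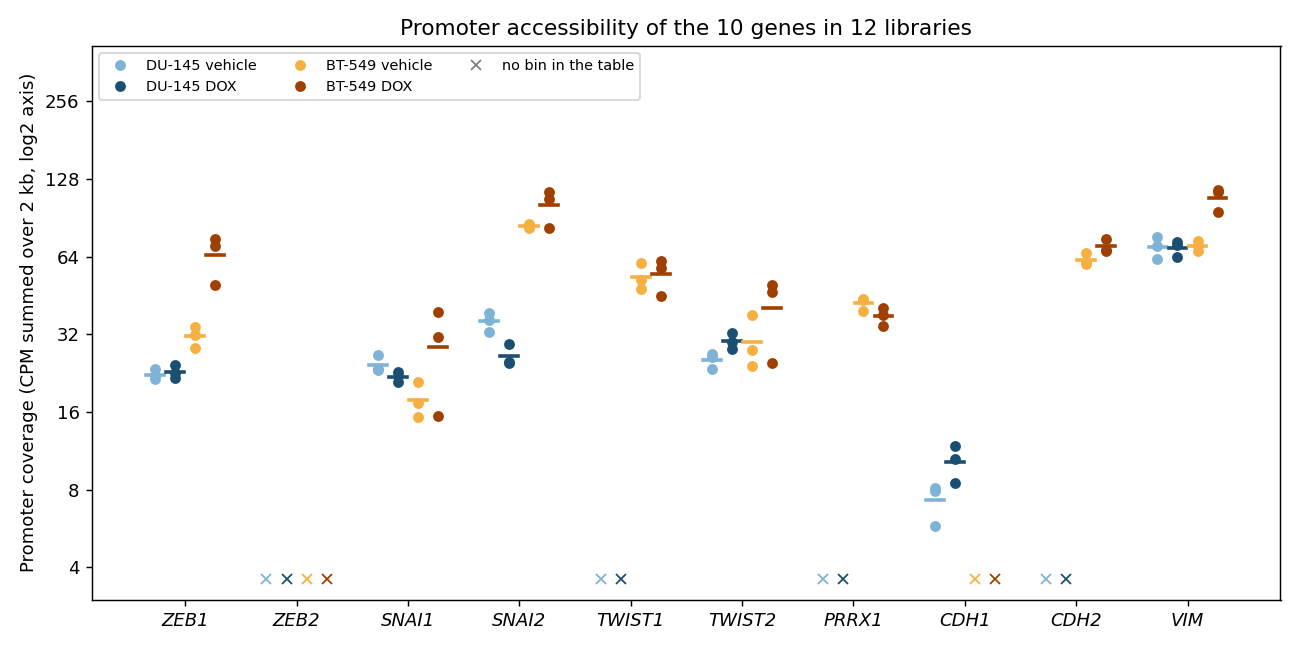
Promoter coverage (CPM summed over the bins within 1 kb of the start, log2 axis) of the 10 genes in 12 libraries, where points are libraries, lines are group means and crosses mark genes without bins in that table. ZEB1 and VIM rise with DOX in BT-549, where SNAI2 has levels above those of DU-145 in both treatments.

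With DOX, ZEB1 had the largest promoter change of the 10 genes, in BT-549. ZEB1 gave 28.4, 31.8 and 34.2 CPM in BT-549 vehicle and 74.8, 49.7 and 70.6 CPM in BT-549 DOX. Every treated library was above every vehicle library, and 37.6% of all BT-549 promoters had groups without overlap (log2 fold change 1.05, SE 0.15, adjusted p = 2.9e-06). In DU-145 the ZEB1 promoter was at 22.4 ± 1.03 CPM with vehicle and 23.0 ± 1.28 CPM with DOX (SD, n = 3), with overlapping values (0.04, SE 0.12). The DU-145 region over the start was at 27.8 and 27.6 CPM (-0.01, SE 0.11). With the GC trend removed it was called higher with DOX (0.42, adjusted p = 0.00089), and with the block as well (0.43). The single accessible region of the BT-549 locus covers this promoter (chr10:31318201-31321100) and rose from 41.4 to 83.1 CPM. In DU-145 the locus held 4 further regions in intron 1. One of them (chr10:31359901-31360400, 40.7 kb from the start) went from 4.25, 4.22 and 3.88 CPM to 1.01, 0.856 and 0.792 CPM, and it had peaks in the vehicle libraries only.

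ZEB2 had 2 distal regions in both tables whose means were higher with DOX in DU-145 and lower in BT-549. One lay in intron 4, 105.2 kb from the start (chr2:144414301-144414900), and one beyond the gene, at 161.7 kb (chr2:144357801-144358400), each with 1 of the AP-1 sites printed above. In intron 4 the mean went from 3.74 to 7.16 CPM in DU-145 and from 10.9 to 5.51 CPM in BT-549. At 161.7 kb it went from 2.30 to 4.75 CPM in DU-145 and from 7.45 to 3.81 CPM in BT-549. The DU-145 regions were called (0.95, SE 0.20, adjusted p = 0.000146, and 1.08, SE 0.24, adjusted p = 0.000265), but the highest bin alone was not in intron 4 (0.47). The DU-145 region at 161.7 kb had peaks in 1 vehicle and 3 DOX libraries. In BT-549 both regions had peaks in the vehicle libraries only, and their unscaled coverage in the DOX libraries was 12.9 to 21.6 and 5.55 to 14.2. The BT-549 falls are therefore given without a test. The DU-145 exon 2 region fell from 11.2 to 6.88 CPM (-0.70, SE 0.16, adjusted p = 0.00028), a call lost with the GC trend removed (-0.27), and in BT-549 it stayed within the spread (28.3 and 28.5 CPM).

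SNAI1, an early inducer of the transition, was higher with DOX than with vehicle in BT-549. Its promoter gave 17.4, 20.9 and 15.3 CPM with vehicle and 15.5, 39.0 and 31.1 CPM with DOX, so DOX replicate 1 lay among the vehicle values (0.68, SE 0.22, adjusted p = 0.0246). The promoter call was lost with TMM factors (0.57) and with DESeq2 (0.58), within 0.5 kb of the start (0.62), and without vehicle replicate 1 (0.66), vehicle replicate 3 (0.58), DOX replicate 2 (0.41) or DOX replicate 3 (0.60). The whole SNAI1 locus was called in BT-549 (27.2 to 41.8 CPM, 0.62, SE 0.18, adjusted p = 0.0062). Its region at -3.38 kb (chr20:49978901-49979600) went from 5.62 to 10.4 CPM (0.89, SE 0.29, adjusted p = 0.0209). That call was lost with the GC trend removed (0.58), with the highest bin alone (0.64), and without vehicle replicate 1 (0.81), vehicle replicate 3 (0.85) or DOX replicate 3 (0.75). In DU-145 the promoter stood at 24.5 and 21.9 CPM (-0.16, SE 0.12) and was not called. The DU-145 region over the start had the same values. It was called lower with TMM factors (-0.35) and DESeq2 (-0.40), and higher with the GC trend removed (0.28). A faint DU-145 region at -13.9 kb (chr20:49968701-49969100) had peaks in 1 vehicle and 3 DOX libraries. It rose from 0.554 to 1.64 CPM (1.45, SE 0.39, adjusted p = 0.00183).

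SNAI2 was the one factor whose promoter was called lower with DOX in DU-145. It gave 32.8, 36.4 and 38.8 CPM with vehicle and 24.9, 29.5 and 25.1 CPM with DOX, without overlap, as for 53.2% of all promoters (-0.44, SE 0.11, adjusted p = 0.00074). Promoters as a whole moved by a median of -0.19 there, so the SNAI2 value was -0.25 relative to that median, and it was not called with TMM factors (-0.24, adjusted p = 0.079) or DESeq2 (-0.25, adjusted p = 0.081). The region over the start had the same values, and among all regions its call was lost with the GC trend removed (-0.22, adjusted p = 0.065). With the block as well it was not called either (-0.22, adjusted p = 0.051). A region downstream of SNAI2, 21.7 kb from the start (chr8:48899001-48899700), rose in the same cells from 2.82 to 6.01 CPM (1.06, SE 0.22, adjusted p = 9.6e-05). In BT-549 the promoter gave 84.2 and 101.3 CPM with overlapping values (0.27, SE 0.11, adjusted p = 0.0743). It was called with the GC trend removed (0.46) and without DOX replicate 2 (0.40), and the locus (0.21) likewise with the GC trend removed (0.47), with 100 kb flanks (0.29) and without DOX replicate 2 (0.33).

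TWIST1 had bins in BT-549 only, where its promoter was at 53.4 ± 6.41 CPM with vehicle and 55.0 ± 8.76 CPM with DOX (SD, n = 3). A region 4.64 kb downstream of the start (chr7:19111501-19113000) rose from 8.44 to 16.7 CPM without overlap, beside 43.2% of all BT-549 regions (0.97, SE 0.25, adjusted p = 0.0036). The other 6 TWIST1 regions were not called. TWIST2, its close relative, was higher at the locus in both lines. It went from 49.5 to 58.6 CPM in DU-145 (0.24, SE 0.08, adjusted p = 0.0111). The sum includes a region 66.4 kb from the start (chr2:238914501-238914900) with peaks in the DOX libraries only, at 0.436 and 2.44 CPM, and without it the locus was at 49.0 and 56.2 CPM, without overlap. The DU-145 call was lost without vehicle replicate 3 (0.21) or DOX replicate 3 (0.23). In BT-549 the TWIST2 locus went from 84.0 to 107.5 CPM (0.36, SE 0.12, adjusted p = 0.0216), with overlapping values and a call lost with DESeq2 (0.33), with the GC trend removed (0.27), with 100 kb flanks (0.06), and without vehicle replicate 1 (0.34), vehicle replicate 3 (0.28), DOX replicate 1 (0.27) or DOX replicate 3 (0.27). The TWIST2 promoters were not called in DU-145 (0.25, SE 0.11, adjusted p = 0.0599) or BT-549 (0.43, SE 0.19, adjusted p = 0.0979), though in DU-145 TMM factors (0.45) and DESeq2 (0.45) gave a call. In BT-549 the promoter was called without DOX replicate 2 (0.67), without vehicle replicate 2 (0.64) and within 2 kb of the start (0.50). The regions over the TWIST2 start were at 0.30 in DU-145 (adjusted p = 0.014) and 0.50 in BT-549 (adjusted p = 0.0468). The first call was lost with TMM factors (0.11), with DESeq2 (0.06), and without vehicle replicate 2 (0.24) or DOX replicate 3 (0.23). The second was lost with the GC trend removed (0.11), with the highest bin alone (0.41), and without vehicle replicate 1 (0.49), vehicle replicate 3 (0.36), DOX replicate 1 (0.29) or DOX replicate 3 (0.41).

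PRRX1 had the largest locus change in DU-145, although its promoter held no bins there. The locus gave 9.96, 11.4 and 8.70 CPM with vehicle and 28.8, 21.3 and 23.4 CPM with DOX, without overlap, as did 57.8% of all genes (1.26, SE 0.14, adjusted p = 4.9e-09). Of its 5 regions 3 were called, all higher. The region 43.7 kb from the start in intron 1 (chr1:170707801-170708700), with peaks in both treatments, rose from 6.39 to 13.1 CPM (1.02, SE 0.17, adjusted p = 2.8e-06). The one at 47.3 kb (chr1:170711401-170712100) went from 0.110, 0.409 and 0.519 CPM to 6.21, 4.76 and 5.64 CPM, and had peaks in the DOX libraries only, with an unscaled vehicle coverage of 1.53 to 9.81. The one at 65.5 kb in intron 3, with peaks in 1 vehicle and 3 DOX libraries, rose to 2.76 CPM (1.35, SE 0.32, adjusted p = 0.00052). Without the region with peaks in DOX alone, the locus was at 9.69 ± 1.44 and 19.0 ± 3.18 CPM (SD, n = 3), still without overlap, a 1.96-fold difference. In BT-549 the locus was at 79.3 and 82.3 CPM, with the promoter at 42.2 and 37.6 CPM, neither called. The 43.7 kb region was at 29.5 and 40.6 CPM there (0.47, SE 0.17, adjusted p = 0.041). That call was lost with the replicate block (0.43), with the highest bin alone (0.10), and without any one of vehicle replicates 1, 2 and 3 (0.45, 0.44 and 0.50) or DOX replicates 2 and 3 (0.39 and 0.31).

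CDH1 rose in DU-145. Its promoter gave 5.77, 7.93 and 8.16 CPM with vehicle and 8.50, 11.8 and 10.5 CPM with DOX, without overlap, as for 53.2% of all promoters (0.50, SE 0.18, adjusted p = 0.0194). Relative to the median of all promoters the change was 0.69. The promoter was low among the open promoters of the line, at the 12.5 percentile in vehicle, and its call was lost without vehicle replicate 1 (0.37), DOX replicate 2 (0.39) or DOX replicate 3 (0.49). The wider region over the start (chr16:68736801-68738700) had overlapping values, with means of 9.55 and 13.0 CPM (0.45, SE 0.16, adjusted p = 0.0182). That call was lost with TMM factors (0.26), DESeq2 (0.20) and the highest bin alone (0.32). It was also lost without vehicle replicate 1 (0.29), DOX replicate 2 (0.37) or DOX replicate 3 (0.42). The locus as a whole rose from 120.0 to 140.6 CPM (0.23, SE 0.07, adjusted p = 0.0054), which was not called without vehicle replicate 1 (0.16). Without its region with peaks in DOX alone, the locus was at 118.9 and 136.9 CPM, without overlap. Of its regions in intron 2, 3 were called higher. A region 18.0 kb from the start (chr16:68755301-68757000) rose from 23.9, 37.0 and 33.5 CPM to 48.6, 51.0 and 45.4 CPM, without overlap, as did 59.5% of all DU-145 regions (0.61, SE 0.11, adjusted p = 1.5e-05). One at 4.41 kb (chr16:68741701-68742300) rose from 3.29 to 5.85 CPM (0.83, SE 0.21, adjusted p = 0.00083). One at 41.3 kb (chr16:68778601-68779300) went from 1.04 to 3.74 CPM with peaks in the DOX libraries only. The start of TANGO6, which lies in the same window, fell from 28.4 to 20.7 CPM (-0.45, SE 0.11), and with the GC trend removed it was not called (-0.14). Of the epithelial marker promoters, EPCAM rose with DOX (0.23, SE 0.09), and KRT8 (-0.61, SE 0.13) and KRT18 (-0.36, SE 0.10) fell. Their part in the CDH1 result was not tested.

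In BT-549, CDH1 kept a single region of its own besides the TANGO6 start, in intron 2 at 52.9 kb (chr16:68790201-68790800). It gave 5.53, 6.66 and 4.63 CPM with vehicle and 2.46, 1.28 and 2.19 CPM with DOX. It had peaks in the vehicle libraries only, and its unscaled coverage in the DOX libraries was 3.21 to 7.16. CDH2 mirrored this pattern between the lines, with 1 small region 27 kb upstream in DU-145 and a broad promoter region in BT-549 (chr18:28175101-28178800). The CDH2 promoter was at 62.1 ± 3.30 CPM with vehicle and 70.2 ± 4.30 CPM with DOX (SD, n = 3), without overlap but not called (0.18, SE 0.12, adjusted p = 0.308). A second BT-549 region, 254.6 kb from the start and beyond the gene (chr18:27921401-27922500), had peaks in 3 vehicle libraries and 1 DOX library. It was called lower (14.6 to 8.71 CPM, -0.77, SE 0.29, adjusted p = 0.0421). That call was lost with TMM factors (-0.66), DESeq2 (-0.65), the GC trend removed (-0.66) and the highest bin alone (-0.79), and without vehicle replicate 1, 2 or 3 (-0.73, -0.79 and -0.77) or DOX replicate 1 or 3 (-0.49 and -0.65).

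VIM, the filament protein of mesenchymal cells, had upstream regions that rose with DOX in both lines. At -12.5 kb (chr10:17215001-17215700) the values were 2.87, 1.82 and 1.01 CPM with vehicle and 5.16, 5.22 and 5.31 CPM with DOX in DU-145 (1.43, SE 0.26, adjusted p = 1.2e-05). Peaks were called there in 2 vehicle and 3 DOX libraries of DU-145. In BT-549 the same bins gave 4.58, 5.79 and 4.83 CPM and 19.6, 17.4 and 8.26 CPM (1.56, SE 0.30, adjusted p = 0.00026). The groups did not overlap in either line. The adjoining region that starts near -11.2 kb rose from 6.36 to 11.9 CPM in DU-145 (0.91, SE 0.16) and from 13.2 to 31.9 CPM in BT-549 (1.26, SE 0.20). The DOX effects at these regions differed by 0.12 (SE 0.41) and 0.37 (SE 0.27) between the lines, and neither difference was called. DU-145 had further regions at -13.9 kb (chr10:17213701-17214300), which rose from 1.69 to 5.63 CPM (1.79, SE 0.24), and at -21.4 kb (chr10:17206201-17206800), which went from 0.304, 0.417 and 0.243 CPM to 6.59, 5.22 and 4.70 CPM with peaks in the DOX libraries only.

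At the VIM start the DOX effect differed between the lines. In BT-549 its promoter rose from 70.7, 67.4 and 73.8 CPM to 116.4, 113.8 and 95.3 CPM (0.61, SE 0.11, adjusted p = 8.5e-05), and the locus from 239.4 to 319.7 CPM (0.42, SE 0.08), without overlap, as did 45.1% of all genes. The VIM locus values in each line include the start of the neighboring gene TRDMT1. That start was at 49.2 and 60.2 CPM in BT-549 and at 55.5 and 48.9 CPM in DU-145, called in neither line. In DU-145 the VIM promoter was at 69.9 and 69.3 CPM, with overlapping values. The wider DU-145 region over the start (chr10:17227801-17231100) fell from 142.9 to 114.5 CPM (-0.32, SE 0.07, adjusted p = 0.00025), but was at 0.09 with the GC trend removed and at -0.02 in its highest bin, neither called. On the shared bins of this region the DOX effects differed by 0.94 (SE 0.11, adjusted p = 1.19e-08). Just beyond the gene, at 9.86 kb (chr10:17238101-17239500), the order was the reverse. Coverage went from 3.82 to 6.95 CPM in DU-145 and from 47.7 to 30.7 CPM in BT-549, a difference of -1.46 (SE 0.26, adjusted p = 2.16e-05). The DU-145 region had peaks in 2 vehicle and 3 DOX libraries. The BT-549 fall was -0.63 over the full region and -0.31, not called, with the GC trend removed.

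**Figure D3:**
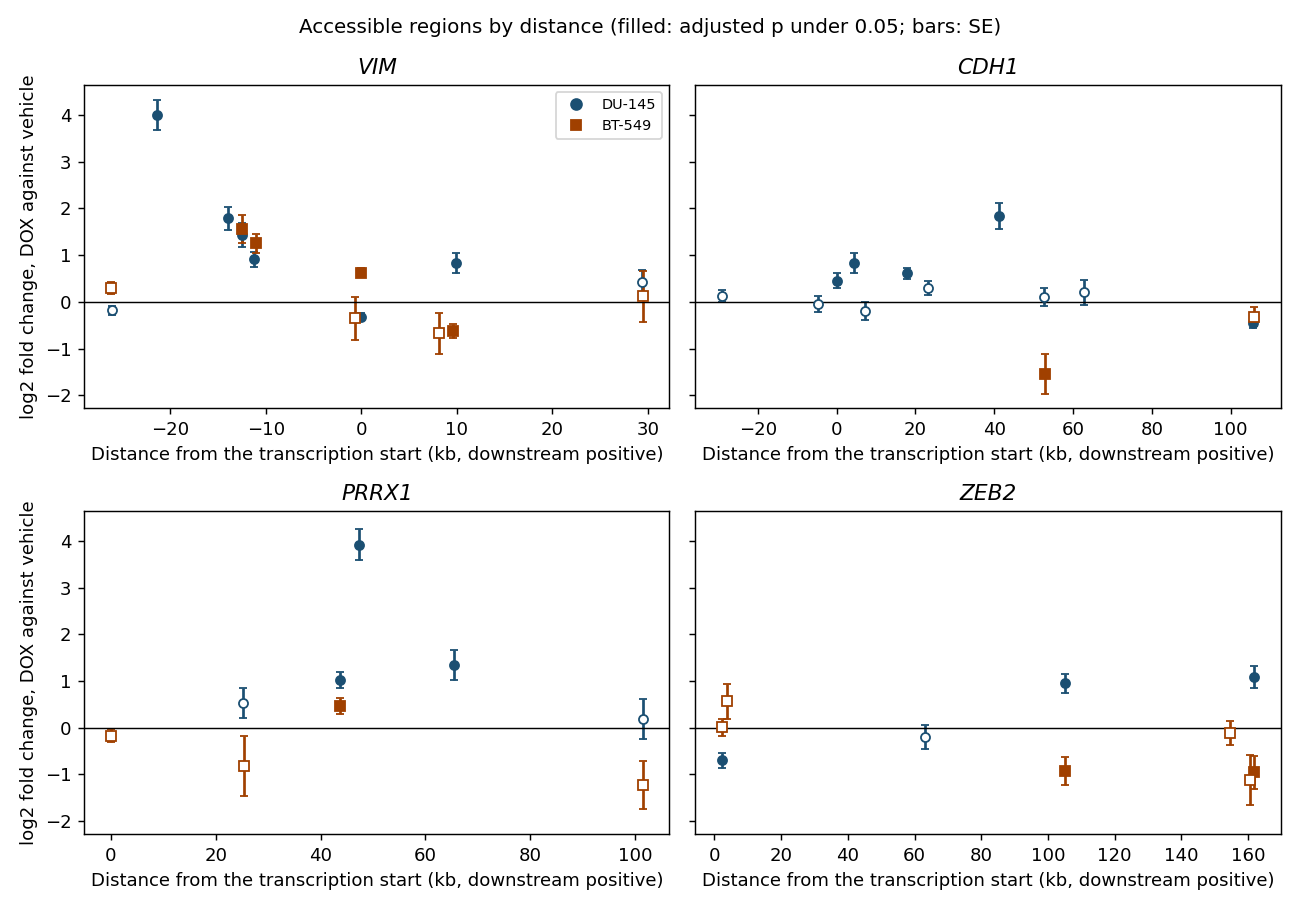
Log2 fold change of each accessible region (DOX against vehicle, bars are SE, filled symbols have an adjusted p under 0.05) against its distance from the transcription start, for VIM, CDH1, PRRX1 and ZEB2 in DU-145 (circles) and BT-549 (squares). The VIM regions between -14 and -11 kb lie above 0 in both lines, while the ZEB2 regions at 105 and 162 kb lie above 0 in DU-145 and below 0 in BT-549. Filled symbols include regions with peaks in one treatment only, for which no test is read. The ZEB2 regions at 105 and 162 kb in BT-549 are among these, with peaks in the vehicle libraries only.

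Counted over the loci, 9 of the 10 genes could be tested in DU-145. PRRX1, TWIST2 and CDH1 were higher with DOX and SNAI2 lower, while 53.0% of all genes were called (21.1% higher, 31.9% lower). Each of the higher loci includes a region with peaks in the DOX libraries only, and without it these loci were not tested. The SNAI2 locus (48.0 to 41.3 CPM, -0.22, SE 0.09) was not called with TMM factors (-0.17) or DESeq2 (-0.17), nor without vehicle replicate 2 (-0.21), vehicle replicate 3 (-0.18) or DOX replicate 3 (-0.21). All 10 loci were tested in BT-549, where ZEB1, SNAI1, VIM and TWIST2 were higher and none lower, beside 34.1% of all genes (19.7% higher, 14.4% lower). The median change was -0.03 over the tested genes in DU-145 and 0.19 in BT-549, beside -0.05 and 0.03 over all genes. CDH1 in BT-549 (33.3 to 24.5 CPM, -0.45, SE 0.18, adjusted p = 0.0567) was just short of a call, and passed with TMM factors (-0.49) and without vehicle replicate 3 (-0.59) or DOX replicate 1 (-0.57). The 18 bins of this locus were the TANGO6 start and a region with peaks in vehicle alone, so the value is no test of CDH1 itself. Without that region only the TANGO6 start was left, at 27.7 and 22.5 CPM, with overlapping values.

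At promoters, 2 of 6 genes were called in DU-145 (CDH1 higher, SNAI2 lower) beside 47.0% of all promoters, of which 40.6% were lower and 6.39% higher. In BT-549, 3 of 8 were called (ZEB1, SNAI1 and VIM, all higher) beside 24.0% of all promoters, 18.2% higher and 5.87% lower.

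**Figure D4:**
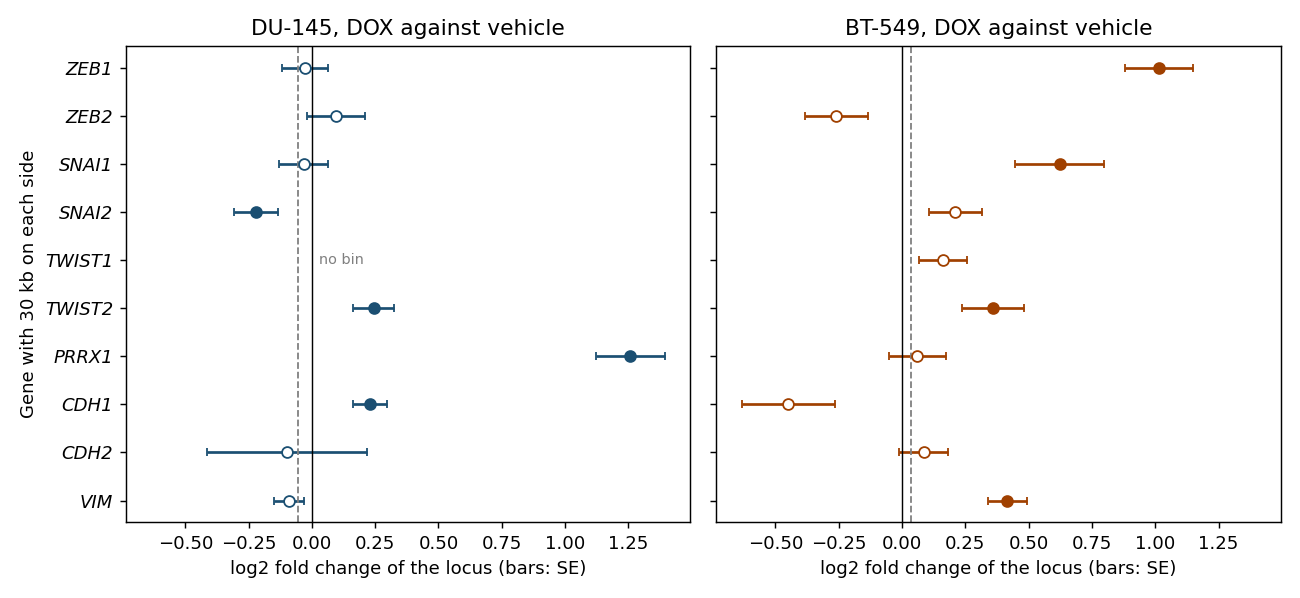
Log2 fold change with DOX (points, bars are SE) of the locus of each gene, with DU-145 on the left and BT-549 on the right, filled points for an adjusted p under 0.05 and a dashed line at the median of all genes. PRRX1 stands out at 1.26 in DU-145 and ZEB1 at 1.01 in BT-549. The PRRX1 value includes a region with peaks in the DOX libraries only. Without that region its locus differed 1.96-fold, which was not tested.

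Of the 46 DU-145 regions, 19 were higher, 5 lower and 22 not called, where 54.5% of all regions were called (37.1% higher, 17.4% lower). TMM factors gave 16 higher and 8 lower, and removal of the GC trend gave 25 and 2. Without the regions with peaks in one treatment only, 15 of 41 were higher and 4 lower, and the share among all such regions was not counted. At a 2-fold change and an adjusted p under 1e-05, 6 were higher, 4 of them with peaks in the DOX libraries only, and 1 was lower, with peaks in the vehicle libraries only, beside 17.3% of all regions (14.1% higher, 3.26% lower). Of the 39 BT-549 regions, 9 were higher, 5 lower and 25 not called, beside 30.2% of all regions (12.2% higher, 18.0% lower). TMM factors gave 13 and 3, removal of the GC trend 8 and 1. Of the 26 with peaks in both treatments, 9 were higher and 2 lower. The 13 left out had peaks in vehicle alone, 3 of them called lower. The share among all regions with peaks in both treatments was not counted, so no direction is read from this count. At a 2-fold change and an adjusted p under 0.01, 3 were higher and 1 was lower, the CDH1 region with peaks in vehicle alone, beside 12.4% of all regions (3.75% higher, 8.62% lower). All regions moved by a median of 0.24 in DU-145 and -0.10 in BT-549, against 0.44 and 0.01 for those of the 10 genes. The BT-549 count fell to 7 without vehicle replicate 1 or vehicle replicate 3, and to 8 without DOX replicate 3.

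Whether the lines responded differently was tested by the interaction of line and DOX on shared bins. At 6 of 8 loci the effect differed, where 47.3% of all genes were called (37.2% higher in BT-549, 10.1% lower) around a median of 0.22. ZEB1 (1.02, SE 0.17, adjusted p = 1.06e-05), SNAI1 (0.86, SE 0.22), SNAI2 (0.71, SE 0.15) and VIM (0.61, SE 0.10) had the higher effect in BT-549. PRRX1 (-0.58, SE 0.24, adjusted p = 0.0408) and ZEB2 (-0.45, SE 0.19, adjusted p = 0.0475) had the higher effect in DU-145. The PRRX1 difference turned to 0.72 with the GC trend removed, and the ZEB2 difference to 0.32 with 100 kb flanks. The shared bins of both genes include 2 regions with peaks in BT-549 vehicle alone. The PRRX1 call was lost without DU-145 vehicle replicate 1 (-0.61) or 3 (-0.50), DU-145 DOX replicate 1 (-0.43), BT-549 vehicle replicate 1 (-0.56) or 3 (-0.55), or BT-549 DOX replicate 1 (-0.38). The ZEB2 call was lost without any DU-145 vehicle replicate (-0.47, -0.41 and -0.46), DU-145 DOX replicate 1 (-0.37) or 2 (-0.46), BT-549 vehicle replicate 1 (-0.36), or any BT-549 DOX replicate (-0.43, -0.46 and -0.46). Of the 21 shared regions, 7 had the higher effect in BT-549, 4 in DU-145 (3 of them with peaks in BT-549 vehicle alone, at ZEB2 and CDH1) and 10 were not called, beside 39.8% of all shared regions (17.8% and 22.0%). The 7 include the TRDMT1 start in the VIM locus (0.49, SE 0.16, adjusted p = 0.0121). This regional test was chosen after the values were seen. In vehicle, 14 of these regions were higher in BT-549 and 2 lower, beside 76.5% of all shared regions (53.5% and 23.0%). At promoters the effect was higher in BT-549 for ZEB1 (1.02), SNAI1 (0.83), SNAI2 (0.74) and VIM (0.65) and not called for TWIST2 (0.18), where 38.5% of all promoters were higher, 3.89% lower and 42.4% called in all.

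A list of 30 further genes of the transition and its signaling was read at the locus. In DU-145, 10 of 29 were higher and 5 lower (53.0% of all genes were called). FN1, the matrix protein fibronectin, rose from 13.7 to 24.9 CPM (0.87, SE 0.12), and SMAD3 (0.33), FOXC2 (0.34) and CDH3 (0.27), P-cadherin and the neighbor of CDH1, rose less. The CDH3 locus shares bins with the CDH1 locus, so the CDH3 value is not separate from that of CDH1. SMAD2 (-0.45) and SMAD4 (-0.45), which carry TGF-beta signals, the receptor gene TGFBR1 (-0.24) the epithelial factor OVOL2 (-0.25) and CTNNA1 (-0.25), the alpha-catenin of cadherin junctions, fell. In BT-549, 7 of 30 were higher and 3 lower (34.1% of all genes). FN1 fell there from 58.4 to 32.7 CPM (-0.82, SE 0.15), with SPARC (-0.96), another matrix protein, and CTNNA1 (-0.57). TCF3 (0.50), an E-protein that also represses CDH1, SMAD3 (0.47), TGFBR2 (0.39) and the receptor kinase AXL (0.32) rose. The effect of DOX differed between the lines at 12 of 29 (47.3% of all genes), 10 with the higher effect in BT-549 and 2 in DU-145, which were FN1 (-1.10, adjusted p = 0.000264) and S100A4 (-0.27). In vehicle, 79.3% of all genes differed. Of the list, 11 of 29 loci were higher in BT-549, with the smallest adjusted p for SPARC (1.59), FN1 (1.84), FOXC1 (0.95) and TCF4 (1.33). The loci of the epithelial genes GRHL2 (1.10), RAB25 (0.32) and ESRP1 (0.17) were among them, but their promoters were not higher. The ESRP1 promoter was lower in BT-549 (-1.63, SE 0.15), and those of GRHL2 and RAB25 held no shared bins. GRHL2 had a promoter peak in 5 of 6 DU-145 and 0 of 6 BT-549 libraries, and RAB25 in 0 of 6 in each line. At the locus, 12 of the list were lower in BT-549, with the smallest adjusted p for SMAD3 (-0.73), CTNND1 (-0.77), ESRP2 (-0.78) and JUP (-0.84). Of these, CTNND1 and JUP belong to cadherin junctions and ESRP2 to epithelial splicing.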

How the data were processed

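ATAC-seq libraries of DU-145 and BT-549 cells (12 in all) were read from 2 deposited tables and 12 peak files. The authors aligned reads to GRCh38 with BWA, removed duplicates with Picard and called peaks per library with MACS2 2.2.7.1 at q under 0.05. They kept regions accessible in at least 3 libraries of a line and deposited the mean fragment coverage of each 100-bp bin, an expected count not scaled for depth. A fragment adds to every bin it spans, so sums of bins are not fragment counts, and the count model is an approximation. The deposited peak files give fold enrichment (a ratio) and the −log10 q-value of each peak. Coverage was summed per gene with 30 kb flanks, per promoter (1 kb on each side of the MANE Select start) and per region, rounded, and tested with edgeR 4.0.16 (R 4.3.3) by glmQLFit and glmQLFTest, two-sided. Library size was the column sum, without further factors, and features with a total under 10 were left out. Lines were compared on shared bins. Alternatives were TMM, DESeq2 1.42.0, no filter, GC trend removal (lowess), a replicate block, other windows and leaving out each library. The q and fold values of peaks were not tested. On simulated data for the DU-145 loci (18511 genes), 93.0% of 1.5-fold and 100% of 2-fold changes were recovered, and for the BT-549 loci (17377 genes) 88.0% and 97.0%. The changes were placed only in well-covered loci, and independent counts were drawn from a negative binomial model. Promoters and regions were not simulated, so these shares do not carry over to them. The 10 genes, the lists and the tests were chosen with earlier results of these data known. All 10 genes were to be named, with the regions at their starts and those with the smallest adjusted p in each direction, and of the 30 further genes up to 4 per direction by adjusted p. Start regions with values close to the promoter's are not repeated. CTNNA1 in DU-145, GRHL2, RAB25, ESRP1 and other regions were named after their values were seen. Within a group, at most 1.65% of bins held identical values in any pair of libraries. Some marker promoters and 1 sequence are not reported here.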

Additional observations from a re-analysis of the deposited data

Results flagged for a closer look

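The effect of DOX differed between the lines at 6 of the 8 loci with shared bins, by the interaction of line and treatment (log2, BT-549 minus DU-145, edgeR). It was 1.02 for ZEB1, 0.86 for SNAI1, 0.71 for SNAI2 and 0.61 for VIM, and -0.58 for PRRX1 and -0.45 for ZEB2. The PRRX1 value turned to 0.72 with the GC trend removed and the ZEB2 value to 0.32 with 100 kb flanks. Of all genes 47.3% were called, the median over all genes was 0.22, and relative to it the values were 0.80, 0.64, 0.49, 0.39, -0.80 and -0.67. No group had 4 or more libraries, so no library could be set apart from its group in this way.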

How the results depend on the processing

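Of 133 alternative values of the 10 counts, 121 stayed within 1.5 times the reported count. Leaving out single libraries gave 2 to 4 called loci and 1 to 3 called promoters in DU-145, 3 to 5 and 2 to 4 in BT-549, 22 to 24 regions in DU-145, 7 to 13 regions in BT-549, 5 to 7 loci and 3 to 4 promoters between the lines, and 4 to 6 loci in the interaction. With 2 kb around the start, 4 promoters were called in DU-145 and 5 between the lines. With the GC trend removed, 9 BT-549 regions were called, and 8 with the block as well. Directions turned with 100 kb flanks for SNAI1 in DU-145 (0.24) and between the lines (0.45), CDH2 in DU-145 (0.95), CDH1 between the lines (-0.43) and the ZEB2 interaction (0.32), and the wider windows hold further regions. With the GC trend removed, and with the block as well, they turned in DU-145 at the start regions of ZEB1 (0.42 and 0.43), SNAI1 (0.28 and 0.28) and VIM (0.091 and 0.093), and for the PRRX1 interaction (0.72 and 0.69). The ZEB1 and SNAI1 start regions were called higher in these settings, and the VIM one was not called. In its highest bin the TWIST2 start region in DU-145 was at -0.0059. The cause was not tested. For the 4 shared regions called in opposite directions, the interaction of line and DOX kept its direction and call in all 19 alternatives each. These were chosen after seeing the data, and calls within a line did not hold in all of them. The ZEB2 regions among the 4 had BT-549 peaks in vehicle libraries only, which favours this direction. The alternatives use the same bins, so their agreement at ZEB2 adds no test.

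Replicate numbers are shared by vehicle and DOX libraries, and whether they pair them is not settled here. Same-numbered deviations correlated at 0.22, 0.099 and -0.054 in DU-145 and 0.0026, 0.19 and 0.063 in BT-549. Other-numbered ones ran from -0.29 to 0.22 in DU-145 and from -0.17 to 0.12 in BT-549. With 3 libraries per group this check cannot exclude pairing. With the replicate block, 4 loci, 2 promoters and 24 regions were called in DU-145, 4, 3 and 12 in BT-549, and 5 loci in the interaction, where the ZEB2 call was lost. Depth limits the BT-549 DOX libraries most, where distal regions rest on few fragments.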
